A study of Rattus norvegicus with 7 samples.

Results

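The mir-17-92 cluster is a group of miRNA genes that lie next to each other and are transcribed as 1 primary transcript. Its members were chosen by name, as the miRNA features called Mir17, Mir18a, Mir19a, Mir20a, Mir19b1 and Mir92a1, and the rule itself uses no measured value. They are 6 of the 571 miRNA features and of the 5491 features of all classes for which levels were deposited. Retinas of untreated rats of the Wistar WU strain were sampled at 7 ages, first at postnatal day 1 (P1), P3 and P5, then at P7 and P10, and lastly at P15 and P21, with birth at P0. At each age, 3 RNA samples from retinas were pooled. Small RNA was sequenced on the Ion Torrent PGM, and 1 value per feature and age was deposited, so the spread between animals is unknown. The sex of the animals was not given in the sources used here.

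Each primary transcript of the cluster is cut into hairpins, and each hairpin into a short mature miRNA that pairs with messenger RNAs through its seed, the bases 2 to 8 from its 5′ end. The cluster is known as an oncogenic miRNA cluster, its transcription is driven by MYC and E2F factors, and its targets include the cell cycle inhibitor CDKN1A and the proapoptotic protein BIM. In the developing nervous system it is known to be high in dividing progenitors. In the rat retina, the last progenitors divide after birth, and rod photoreceptors, bipolar cells and Müller glia are among the cells born last.

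The 6 loci span 785 bases on the forward strand of chromosome 15 in the Rnor_6.0 assembly. Mir17 (ENSRNOG00000035657.1) lies at chr15:100179879-100179962 and is followed by Mir18a (ENSRNOG00000035645.1) at chr15:100180015-100180110. Mir19a (ENSRNOG00000035578.1) lies at chr15:100180162-100180243 and Mir20a (ENSRNOG00000035605.1) at chr15:100180334-100180418. Mir19b1 (ENSRNOG00000035462.1) lies at chr15:100180464-100180550, and Mir92a1 (ENSRNOG00000035649.1) closes the cluster at chr15:100180586-100180663. Of the features listed, 0 others overlapped this span, so the primary transcript itself was not measured here.

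The main mature sequences of the members are shown with the seed in capitals, since the members and their paralogs are grouped by it (RefSeq, GRCr8 assembly, forward strand, all 6 members matched).
Mir17 (miR-17-5p): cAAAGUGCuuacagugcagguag
Mir20a (miR-20a-5p): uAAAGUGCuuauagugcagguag
Mir18a (miR-18a-5p): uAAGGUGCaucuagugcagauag
Mir19a (miR-19a-3p): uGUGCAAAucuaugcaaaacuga
Mir19b1 (miR-19b-3p): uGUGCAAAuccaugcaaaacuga
Mir92a1 (miR-92a-3p): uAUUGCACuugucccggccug
Mir17 and Mir20a share the seed AAAGUGC and differ by C1U and C12U, counted from the 5′ end with the base of Mir17 first. Mir18a differs from Mir17 inside the seed by A4G. Mir19a and Mir19b1 share the seed GUGCAAA and differ only by U11C. Levels were deposited per hairpin, so reads of the 5′ and 3′ arms could not be told apart, and how reads that match several loci were shared out is not given in the sources used here.

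Levels are given in FPKM, by definition fragments relative to the length of the feature in kilobases and to the mapped fragments of the library. The number of sequenced molecules behind a value was estimated from the regular steps between low FPKM values and is given as effective alignments, the number of reads that carries the same counting error. In these data, 1 alignment was worth more FPKM on a short feature than the ratio of the lengths gives. At P1, Mir19a (62 bases) had 871673 FPKM on 5579 effective alignments and Mir19b1 (92 bases) 708241 FPKM on 10482. Effective alignments of a whole library ranged from 218976 at P15 to 1655144 at P21. The 95% counting intervals below rest on these numbers, and they cover counting error only. miRNAs took 39.1% of the alignments at P3, and 58.0% to 74.2% elsewhere. In bulk RNA, fewer cells of a type and less RNA per cell cannot be told apart.

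As deposited, all members had their highest level at P1 and were lower at P21, by unequal amounts (when scaled to the miRNA total, Mir17 and Mir19b1 were highest at P3). Mir20a was 17-fold and Mir18a 16-fold higher at P1 than at P21, Mir92a1 6.30-fold and Mir19a 6.27-fold higher, Mir17 was 4.16-fold higher and Mir19b1 2.70-fold higher. The highest level at P1 was found for 6 of 6 members and for 22.1% of all miRNA features. A level at least 2-fold higher at P1 than at P21 was found for 6 of 6 members, against 32.9% of all miRNA features, and a level at least 4-fold higher for 5 of 6, against 21.0%.

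**Figure D1:**
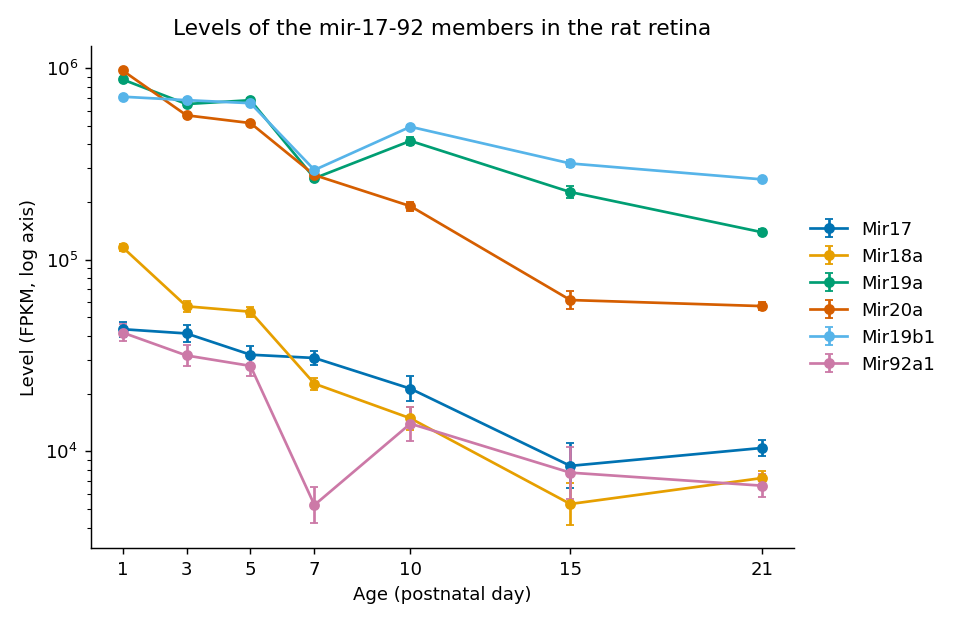
Levels of the 6 members (FPKM, log axis) against age in postnatal days, with 1 library per age and bars for the 95% counting interval. As deposited every member is highest at P1 (Mir17 and Mir19b1 at P3 when scaled to the miRNA total), Mir19a, Mir19b1 and Mir92a1 dip at P7, and Mir20a goes from 970552 FPKM at P1 to 57224 FPKM at P21.

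Mir20a, a member of the miR-17 seed family, had the highest FPKM of the members at P1, whereas by alignments, without regard to feature length, Mir19b1 was ahead of it (10482 against 9116 effective alignments). Its level was 970552 FPKM at P1, 566303 at P3 and 515906 at P5, then 276150 at P7 and 190173 at P10, and lastly 61549 at P15 and 57224 at P21. It was lower at each age than at the age before, and only the last of these steps, from P15 to P21, was within the counting interval (log2 difference -0.11, from -0.28 to 0.067). At P1 it ranked 3 among the 571 miRNA features by FPKM, and at P21 it ranked 50.

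Mir18a, whose seed differs from that of Mir17 by a single base, had the largest early difference. Its level was 116105 FPKM at P1, 57085 at P3 and 53496 at P5, then 22531 at P7 and 14865 at P10, and lastly 5309 at P15 and 7253 at P21. From P1 to P3 alone the level was 2.03-fold lower, whereas P3 and P5 could not be told apart by counting error (log2 difference -0.094, from -0.22 to 0.034). The level at P21 lay above that at P15, by 0.45 on the log2 scale (from 0.056 to 0.84), with 58 effective alignments at P15. Under scaling to the miRNA total, P21 was the lowest age of Mir18a.

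Mir17, which gives its name to the cluster and to the seed family, was far less abundant than Mir20a. Its level was 43355 FPKM at P1, 41196 at P3 and 31909 at P5, then 30684 at P7 and 21226 at P10, and lastly 8393 at P15 and 10412 at P21. The steps from P1 to P3, from P5 to P7 and from P15 to P21 were within the counting interval, so that the level changed mainly between P7 and P15. The largest step, from P10 to P15, was 2.53-fold.

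Mir19a and Mir19b1, the miR-19 family of the cluster, were both still abundant at the oldest age. The level of Mir19a was 871673 FPKM at P1, 648415 at P3 and 679053 at P5, then 265861 at P7 and 416454 at P10, and lastly 225254 at P15 and 138951 at P21. The level of Mir19b1 was 708241 FPKM at P1, 679520 at P3 and 655149 at P5, then 293601 at P7 and 493526 at P10, and lastly 317620 at P15 and 262270 at P21. Mir19b1 stayed within a narrow range up to P5, while Mir19a was 1.34-fold lower at P3 than at P1, and both were low at P7 and higher again at P10. Mir19b1 ranked 6 among miRNA features by FPKM at P1 and 14 at P21, and its mean over the ages, 487132 FPKM, was the highest of the cluster.

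Mir92a1, the last hairpin of the cluster, whose mature miRNA is known to act in vessel growth, was the member with the lowest mean level (19242 FPKM). Its level was 41650 FPKM at P1, 31617 at P3 and 27897 at P5, then 5244 at P7 and 13936 at P10, and lastly 7737 at P15 and 6615 at P21. It was the only member with its lowest level at P7, but P7, P21 and P15 could not be told apart in that order (log2 difference between P21 and P7 0.33, from -0.037 to 0.71). Under scaling to the miRNA total or TMM scaling, its lowest age was P21. The values rest on 39 to 380 effective alignments, the fewest of the cluster.

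Summed over the 6 members, the level was 2751576 FPKM at P1, 2024136 at P3 and 1963410 at P5, then 894071 at P7 and 1150180 at P10, and lastly 625862 at P15 and 482726 at P21. The sum at P1 was 5.70-fold that at P21 (log2 difference 2.51, 95% counting interval from 2.48 to 2.54). The sum includes Mir19b1, whose level may hold reads of Mir19b2, a locus elsewhere with the same mature sequence. As a share of all miRNA alignments, which does not depend on feature length or on other RNA classes, the cluster held 15.9% at P1, 10.4% at P3 and 8.36% at P5, then 4.81% at P7 and 4.03% at P10, and lastly 2.38% at P15 and 1.58% at P21. On this scale each age lay below the one before, also P10 below P7. The share does depend on the other miRNAs. The loci of the neuronal miRNA Mir124 summed to 1020254 FPKM at P1 and 11820000 FPKM at P21. A rise of these loci lowers the share of every other miRNA, and the share without them was not computed. Most members had their lowest FPKM at P15 or P21 (5 of 6, against 36.8% of all miRNA features).

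**Figure D2:**
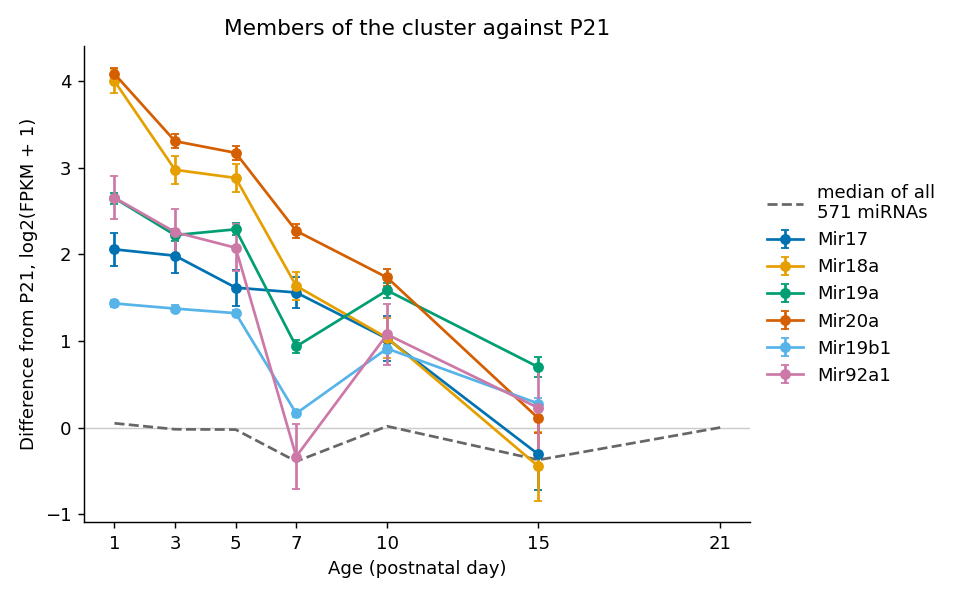
Difference of each member from its own level at P21 on the log2(FPKM + 1) scale against age in postnatal days, with 95% counting intervals and the median of the 571 miRNA features as a dashed line. The members fan out from 1.43 (Mir19b1) to 4.08 (Mir20a) at P1 and run from -0.45 (Mir18a) to 0.70 (Mir19a) at P15, while the median of all miRNAs is 0.049 at P1.

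The differences between P1 and P21 were compared with those of all miRNAs. The median log2 difference was 2.65 over the 6 members and 0.049 over all 571 miRNA features. Ranked by this difference, Mir20a was 20th and Mir18a 22nd of 571, Mir92a1 was 74th, Mir19a 75th, Mir17 113th and Mir19b1 158th. Among the 336 miRNA features with a mean of at least 20 effective alignments, Mir20a was 9th and Mir18a 11th.

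With 1 library per age, the relation with age could be tested only over the 7 libraries. The Spearman correlation of FPKM with the day was tested with the exact permutation test over all orders of the libraries (two-sided), and p-values were adjusted by the Benjamini-Hochberg method over the 571 miRNA features. Mir20a, Mir18a and Mir17 fell with age, so that 3 of 6 members passed at an adjusted p of 0.05. Of all 571 miRNA features, 2.45% passed and fell. Mir20a had a rho of -1 (exact permutation p = 0.000397, the smallest that the two-sided Spearman test of 7 libraries can give, adjusted p = 0.0378), and Mir18a and Mir17 a rho of -0.96 each (exact permutation p = 0.00278, adjusted p = 0.0467). Mir19a (rho -0.93, exact permutation adjusted p = 0.0802), Mir19b1 (rho -0.89, exact permutation adjusted p = 0.102) and Mir92a1 (rho -0.79, exact permutation adjusted p = 0.196) did not pass. Before adjustment, 6 of 6 members fell with an exact permutation p under 0.05, as did 14.2% of all 571 miRNA features.

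The Pearson correlation of log2(FPKM + 1) with the day was again strongest for Mir20a. It was -0.97 for Mir20a (exact permutation p = 0.000198, adjusted p = 0.0252), -0.94 for Mir17, -0.93 for Mir19a and -0.92 for Mir18a (exact permutation adjusted p = 0.0490 each). These 4 of 6 members passed and fell, as did 2.98% of all 571 miRNA features. The correlation was -0.83 for Mir19b1 (exact permutation p = 0.0204, adjusted p = 0.103) and -0.76 for Mir92a1 (exact permutation p = 0.0512, adjusted p = 0.169). Without P15 and P21, the 2 ages farthest from the median, r was -0.98 for Mir20a and Mir18a, -0.97 for Mir17, -0.76 for Mir19a, -0.71 for Mir92a1 and -0.62 for Mir19b1. In the main test 34 miRNA features were called, of which 14 fell. Scaling to the miRNA total called 36 (30 falling), TMM 37 (9 falling) and median-of-ratios scaling 15 (4 falling), and the members called were 3, 2 and 1. With any single age left out, 0 of 571 miRNA features passed the Spearman test, while 4 to 6 members had an unadjusted p under 0.05.

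The differences between neighbouring ages were uneven. From P1 to P3, the summed level was 1.36-fold lower, from P3 to P5 1.03-fold lower, from P5 to P7 2.2-fold lower and from P10 to P15 1.84-fold lower. Between P5 and P7, 5 of 6 members were lower beyond the counting interval, as were 31.7% of all miRNA features, and Mir17 was the exception. Mir92a1 was 5.32-fold lower at this step, Mir19a 2.55-fold, Mir18a 2.37-fold, Mir19b1 2.23-fold and Mir20a 1.87-fold. Between P10 and P15, 6 of 6 members were lower beyond the counting interval, as were 20.7% of all miRNA features, from 3.09-fold for Mir20a down to 1.55-fold for Mir19b1.

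At P7 the members parted. Mir92a1 was 2.66-fold higher at P10 than at P7, Mir19b1 1.68-fold and Mir19a 1.57-fold, whereas Mir18a, Mir20a and Mir17 were lower at P10. A level above P7 at P10 beyond the counting interval was thus found for 3 of 6 members and for 30.5% of all miRNA features. The median of all miRNA features against P21 was -0.39 at P7 and -0.37 at P15 on the log2 scale, so miRNAs at large were also lower at both ages. The difference between P10 and P7 stayed above 0 for Mir92a1 under each scaling (log2 difference of 1.41 as deposited and 0.76 relative to all miRNA alignments), but relative to all miRNA alignments it was 0.11 for Mir19b1 and 0.0045 for Mir19a. The summed level was higher at P10 than at P7 by 0.36 as deposited and by 0.11 under median-of-ratios scaling, and it was lower under scaling to the miRNA total (-0.044), TMM (-0.076) and relative to all miRNA alignments (-0.25).

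The proportions of the members differed between ages. Ratios within a library do not depend on how libraries are scaled, and each member is given relative to Mir19b1. Because Mir19b1 differed least between P1 and P21, each of these ratios has to be lower at P21, and because Mir19b2 carries the same mature sequence, its level may hold reads of both loci. Between Mir19a and Mir20a, whose main mature sequences no other locus carries, the log2 changes from P21 to P1 also differed (Mir19a minus Mir20a -1.43, from -1.53 to -1.34). The FPKM of Mir20a was 1.37 times that of Mir19b1 at P1, between 0.787 and 0.941 times from P3 to P7, 0.385 at P10, and then 0.194 at P15 and 0.218 at P21. The ratio of Mir18a to Mir19b1 was 0.164 at P1 (from 0.157 to 0.172), 0.0767 at P7, 0.0167 at P15 and 0.0277 at P21 (from 0.0252 to 0.0303). The ratio of Mir19a to Mir19b1 was 1.23 at P1, 0.906 at P7 and 0.530 at P21, although their mature sequences differ at a single base. The size of these FPKM ratios depends on feature length. By effective alignments at P1, Mir19a (5579) and Mir20a (9116) were both below Mir19b1 (10482).

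**Figure D3:**
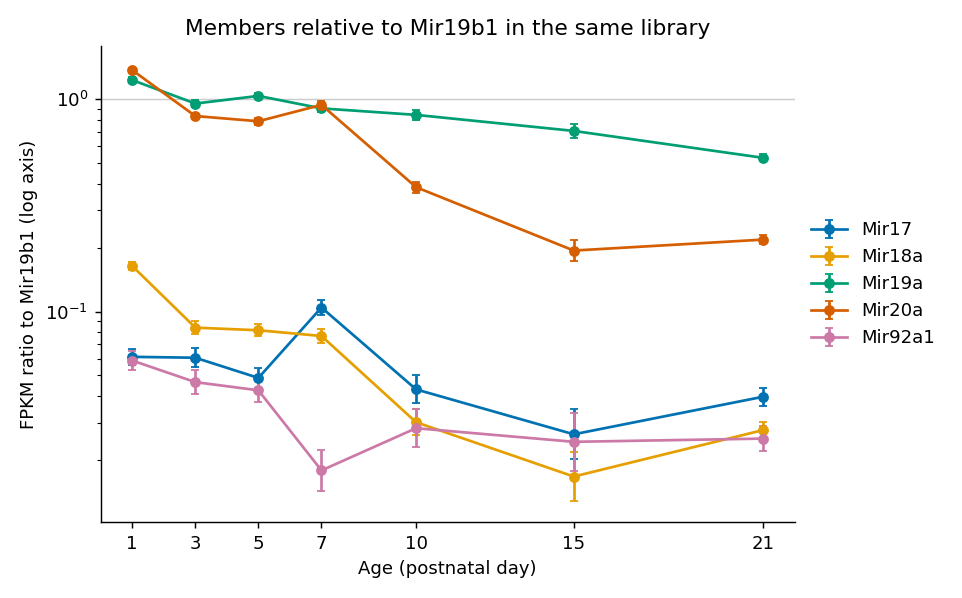
FPKM of 5 members divided by that of Mir19b1 in the same library (log axis) against age in postnatal days, with 95% counting intervals. The size of a ratio depends on feature length. Mir20a goes from 1.37 at P1 to 0.218 at P21, Mir19a from 1.23 to 0.530, and Mir17 has its highest ratio at P7 (0.105) where Mir92a1 has its lowest (0.0179).

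Mir17 and Mir92a1 differed in the opposite way at P7. The ratio of Mir17 to Mir19b1 was 0.0612 at P1, 0.105 at P7 and 0.0397 at P21, and that of Mir92a1 was 0.0588 at P1, 0.0179 at P7 and 0.0252 at P21. At P1 the ratios of Mir17 and Mir92a1 were alike within their counting intervals, and at P7 their intervals were apart (from 0.0961 to 0.114 and from 0.0143 to 0.0222). Over the 15 pairs of members, the differences between P1 and P21 were unequal beyond the counting interval in 13. The exceptions were Mir18a with Mir20a (difference of log2 changes -0.083, from -0.24 to 0.076) and Mir19a with Mir92a1 (-0.0053, from -0.26 to 0.25). Pairs with Mir17, Mir19b1 or Mir92a1 may hold reads of another locus with the same main mature sequence. Variation between animals is not in these intervals.

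In the makeup of the cluster, Mir20a made up 35.3% of the summed FPKM at P1 and 11.9% at P21, and Mir19b1 25.7% at P1 and 54.3% at P21. Mir19a held between 28.8% and 36.2% at all ages. Mir18a went from 4.22% at P1 to 1.5% at P21, Mir17 stayed between 1.34% and 3.43% and Mir92a1 between 0.587% and 1.56%. The features of the members differ in length, with 62 bases for Mir19a and 92 for Mir19b1. Length enters these shares by more than the ratio of the lengths. Counted as alignments without regard to length, Mir19b1 held 37.0% of the cluster at P1 and 68.9% at P21, Mir20a 32.2% and 9.55%, and Mir18a 8.06% and 2.53%. On this scale Mir19a held between 15.8% and 21.5%. Mir19b2 carries the mature sequence of Mir19b1, so the part of Mir19b1 may hold reads of both loci. The parts of the other members depend on it.

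**Figure D4:**
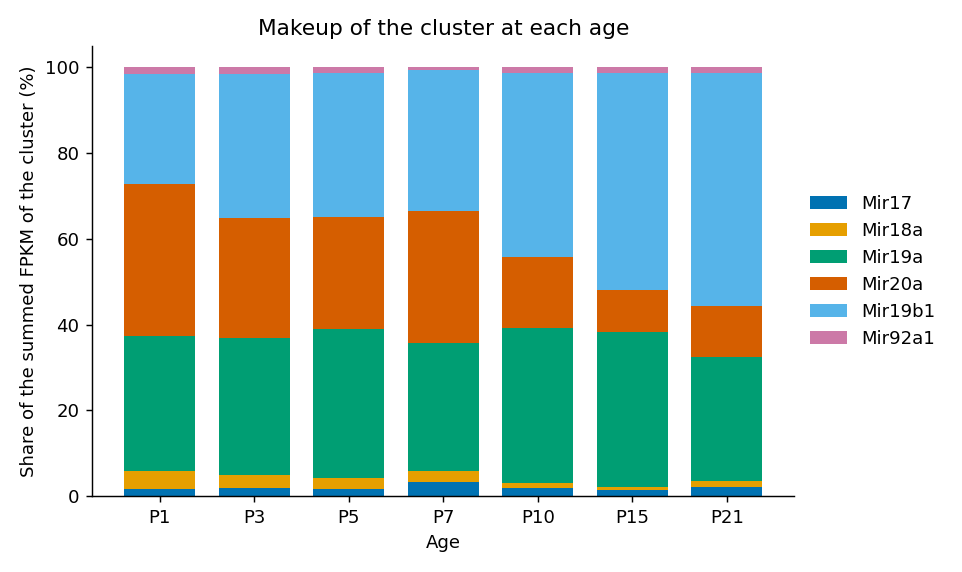
Share of each member in the summed FPKM of the cluster (percent, bars stacked to 100) at each age. The share of Mir20a goes from 35.3% at P1 to 11.9% at P21, and that of Mir19b1 from 25.7% to 54.3%. Mir19b1 may hold reads of Mir19b2, which has the same mature sequence.

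Close copies of the cluster lie elsewhere in the genome and carry the same seeds. They belong to the mir-106b-25 cluster on chromosome 12, known to sit within the replication gene Mcm7, and to the mir-106a-363 cluster on the X chromosome. Levels were given for 8 of these paralogs, and Mir18b was not analysed here. Mir19b2, Mir106a and Mir92a2 carry the main mature sequence of a member and are not independent of it. The median log2 difference of the paralogs between P1 and P21 was 1.44, against 2.65 for the members and 0.049 for all miRNA features. At least 2-fold higher at P1 were 6 of 8, against 32.9% of all miRNA features, and 2 of 8 fell with age in the Spearman test, against 2.45%.
Mir106b (miR-106b-5p, chromosome 12): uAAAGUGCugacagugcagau
Mir363 (miR-363-3p, X chromosome): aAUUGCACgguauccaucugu
These are the paralogs that fell with age, shown with the seed in capitals (RefSeq, GRCr8, reverse strand), and each shares its seed with a member of mir-17-92.

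Mir106b had 526107 FPKM at P1, 410884 at P3 and 436625 at P5, then 296609 at P7 and 289846 at P10, and lastly 162014 at P15 and 126621 at P21 (rho -0.96, exact permutation adjusted p = 0.0467). It was 4.15-fold higher at P1 than at P21, where the members with the same seed were 17-fold (Mir20a) and 4.16-fold (Mir17) higher. Mir363 had 6025 FPKM at P1, 4973 at P3 and 4971 at P5, then 3354 at P7 and 3166 at P10, and lastly 2242 at P15 and 2302 at P21 (rho -0.96, exact permutation adjusted p = 0.0467), on 13 to 83 effective alignments. Mir93 was 4.79-fold higher at P1 and Mir25 2.19-fold, and neither passed the test (exact permutation adjusted p = 0.137 and 0.196). Mir20b, on the X chromosome, was at a low level at all ages (1645 to 4033 FPKM) and was not higher at P1 (log2 difference -0.22, from -0.88 to 0.44).

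**Figure D5:**
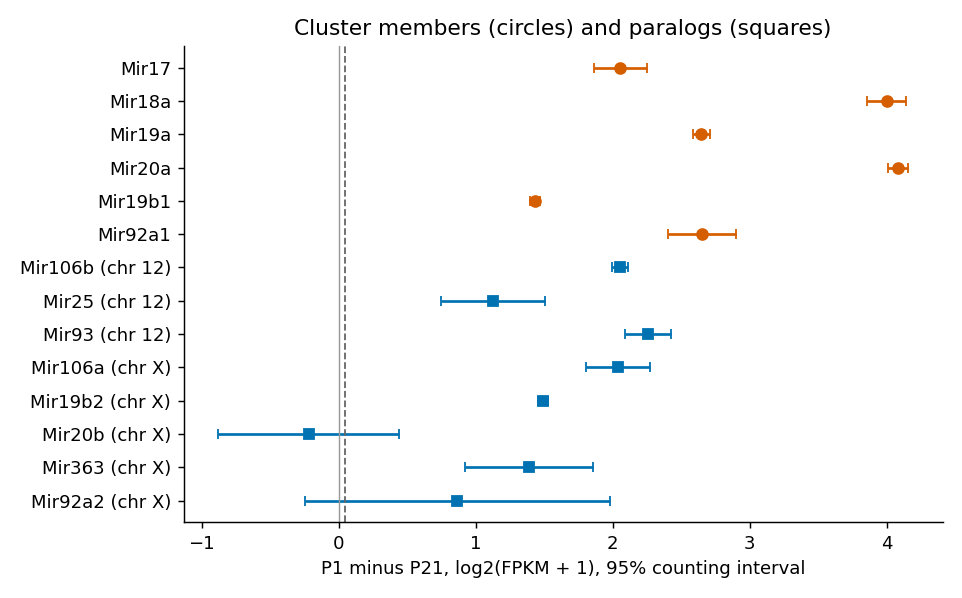
Difference between P1 and P21 on the log2(FPKM + 1) scale with 95% counting intervals for the 6 members (circles) and 8 paralogs (squares, with their chromosome). The dashed line is the median of all miRNA features (0.049), and the members reach from 1.43 to 4.08 and the paralogs from -0.22 to 2.26.

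Some members share their whole mature sequence with a paralog, so that their reads cannot be assigned to a locus from this sequence alone. Mir19b1 and Mir19b2 both give miR-19b-3p, and the ratio of their alignments lay between 0.976 and 1.02 at all ages, with 1 inside 7 of 7 counting intervals. The levels of Mir19b1 are therefore those of a sequence present at both loci. For Mir17 and Mir106a, which both give miR-17-5p in RefSeq, the ratio lay between 1.32 and 2.08. For Mir92a1 and Mir92a2 it lay between 3.90 at P7 and 38.0 at P1, but Mir92a2 had only 2 to 21 effective alignments. Over the members whose main mature sequence no other locus carries, Mir18a, Mir19a and Mir20a, the summed level was higher at P1 than at P21 by 3.27 on the log2 scale.

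Counted by seed family, the part held by the features of the cluster differed between ages in the AAAGUGC family. Its 6 loci (Mir17, Mir20a, Mir106b, Mir93, Mir106a and Mir20b) summed to 1619183 FPKM at P1 and 214963 FPKM at P21, a 7.53-fold difference. The cluster features held 62.6% of this sum at P1, 47.1% at P7 and 31.5% at P21, with the reads of Mir17 and Mir106a split as the authors counted them. The GUGCAAA family (Mir19a, Mir19b1 and Mir19b2) summed to 2500613 FPKM at P1 and 728210 FPKM at P21, a 3.43-fold difference. Since Mir19b1 and Mir19b2 share their mature sequence, this sum may count the same reads at both loci, and no part of it is assigned to the cluster here. In the AUUGCAC family (Mir92a1, Mir25, Mir92a2 and Mir363), which was 4.16-fold higher at P1, the cluster feature held 70.5% at P1, 35.9% at P7 and 46.5% at P21. Here the reads of Mir92a1 and Mir92a2, which share a mature sequence, are split as the authors counted them. At P7, Mir92a1 had 81 effective alignments. The AAGGUGC seed was carried by Mir18a alone among these loci.

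The miRNAs whose profile over the 7 ages was most like the mean profile of the members were Mir363 (Pearson r = 0.994), Mir503 (0.986), Mir494 (0.984), Mir296 (0.979) and Mir106b (0.973), out of 330 miRNA features with a mean of at least 100 FPKM and 20 effective alignments. These correlations are a description over 7 libraries that share their scaling. The members' own correlations with this mean lay between 0.909 (Mir92a1) and 0.982 (Mir20a). Mir503, which belongs to the mir-16 family and is known to restrain the cell cycle, had 25733 FPKM at P1, 8720 at P3 and 8760 at P5, then 2389 at P7 and 2462 at P10, and lastly 704 at P15 and 949 at P21. It was 27.1-fold higher at P1 than at P21, a larger difference than that of any member.

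Other miRNAs tied to dividing cells did not follow as a group. Of 7 such loci, 3 were at least 2-fold higher at P1 and 2 at least 2-fold lower (32.9% and 31.5% of all miRNA features), with a median log2 difference of 0.58. Mir130b fell with age (16962 FPKM at P1 and 4451 at P21, rho -0.96, exact permutation adjusted p = 0.0467), and Mir221 rose (520 FPKM at P1 and 3481 at P21, rho 0.96, exact permutation adjusted p = 0.0467). Of all miRNA features, 2.45% passed and fell, and 3.50% passed and rose. Mir15b, a regulator of cyclins, was 5.38-fold higher at P1 than at P21 but was lower at P3 (26780 FPKM) than at P1 (134684 FPKM) and P5 (104909 FPKM). Of the 13 loci of let-7, mir-34 and mir-29, which are known to restrain division and some of which share a mature sequence, 2 were at least 2-fold higher and 2 at least 2-fold lower at P1 (32.9% and 31.5% of all miRNA features), and their median log2 difference was -0.022. In the Spearman test (exact permutation) 0 passed after adjustment, and 1 had an unadjusted p under 0.05 (Mir34b, with a negative rho). Of all miRNA features, 14.2% fell with such an unadjusted p. The largest difference of the list was that of rno-mir-29b-2, with 2005 FPKM at P1 and 60484 at P21, 30.1-fold higher at P21 (rho 0.68, exact permutation adjusted p = 0.296).

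Markers of retinal neurons were higher at later ages, where the cluster was lower. Mir124-1, a neuronal marker, rose with age (391668 FPKM at P1 and 4500000 at P21, rho 0.96, exact permutation adjusted p = 0.0467). Mir124-2 and Mir124-3 gave the same rho and p, but the Mir124 loci give the same mature miRNA and had nearly equal effective alignments, so they count as 1 measurement and not as separate features. The photoreceptor miRNAs Mir183 and Mir96 summed to 117463 FPKM at P1, 1015632 at P10 and 537842 at P21, and neither passed the test. Mir182 was not analysed here. Mir204 and Mir211, which are known from pigment epithelium and also from the neural retina, summed to 87709 FPKM at P1 and 483914 at P21, and Mir211 rose with age (rho of 1, exact permutation adjusted p = 0.0378).

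Markers of other cell types were present in every library, and none of them was at 0. Some rest on very few reads, with at the lowest 2 effective alignments for Mir133b and 3 for Mir223. The blood list (5 loci, 0 of which passed the test) summed to 20757 FPKM at P1, 6172 at P3 and 11674 at P5, then 6245 at P7 and 19003 at P10, and lastly 11620 at P15 and 17664 at P21. Mir126a, the endothelial marker, was at 42554 FPKM at P1, 14666 at P3 and 14922 at P5, then 7031 at P7 and 24362 at P10, and lastly 40166 at P15 and 33548 at P21. It was thus lowest at P7, and lower at P3 and P5 than at P1. The mural markers Mir143 and Mir145 also had their lowest sum at P7 (14480 FPKM, against 34802 to 98627 at the other ages). The muscle list (3 loci) summed to 165251 FPKM at P3 and 100176 at P5, and to between 4840 and 11665 at the other ages. The part of these cells in the levels of the cluster was not tested.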

How the data were processed

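Small RNA of the rat retina was measured at 7 ages. Each age had 1 pool of 3 RNA samples from retinas, which the paper reports as sequenced in repeated runs. Reads were trimmed and aligned by the authors to noncoding RNAs of Ensembl, and they estimated levels with Cufflinks and Cuffmerge before comparing ages with Cuffdiff (version 2.2.1.3 and build Rnor_6.0 per the submitters' processing notes). They deposited FPKM values for 5491 features in 21 pairs of ages, beside fold changes, test statistics, p-values and q-values of these pairs, which were not used. Of the per-sample values, 1 FPKM value per feature and age was taken, and no count test was run because FPKM are not counts.

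The value of 1 alignment was found from the low FPKM values at P1 for 505 of 724 feature lengths and interpolated for the others. P1 had 1 step, P3 to P15 fell on sums of 2 steps and P21 on sums of 3. The steps of a library were taken to carry equal signal. At P21, the reference age, 96.0% of the low values lay on such sums, against 100% at P3 to P15. These steps gave the effective alignments and the 95% counting intervals, which assume independent reads and leave out variation between animals. The procedure and the trend test were tested on simulated data. For the procedure these were drawn with independent reads and equal signal per step, so those assumptions were not tested.

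Levels were compared as log2(FPKM + 1), a scale that understates changes of low values. Ages could not be tested against each other, having 1 library each, and p-values come from the exact permutation test of a correlation with the day over 7 libraries. The members, the lists and the rule for named miRNAs were chosen with earlier results of these data known. That rule covers the members, their paralogs, the lists for dividing and restrained cells, the cell type markers and the 5 miRNAs most like the members. Alternatives were 3 scalings over the miRNAs (miRNA total, median-of-ratios, and TMM with 30% of ratios and 5% of levels trimmed at each end), pseudocounts of 0.1 and 10, the mean of single loci, leaving out loci with a shared mature sequence, the mean of all ages as reference, a Pearson correlation with the day or its log2, filters at a mean of 100 FPKM and above 0 in every library, and leaving out each age. Levels relative to all miRNA alignments and a filter at 20 effective alignments were added after the data were seen. Some miRNAs are not reported here. Python 3.11.15 was used with scipy 1.17.1, numpy 2.4.6, matplotlib 3.10.9 and pandas 2.3.3.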

Additional observations from a re-analysis of the deposited data

How the results depend on the processing

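No paired analysis was possible because each age has 1 library. The cluster sum was higher at P1 than at P21 under every alternative tried, with a log2 difference of 2.51 as deposited, 3.14 scaled to the miRNA total, 2.43 with median-of-ratios scaling, 2.37 with TMM, 3.33 relative to all miRNA alignments, 2.81 as the mean of the single loci, 3.27 without loci of a shared mature sequence and 1.21 against the mean of all ages. For P1 against P21, the scalings move every miRNA by 0.63 (miRNA total), -0.077 (median-of-ratios) and -0.14 (TMM). The miRNA total and all miRNA alignments include the Mir124 loci, which were higher at P21 and may count the same reads at each locus. The differences on these scales were not computed without them. Pseudocounts of 0.1 and 10 left the log2 difference of the cluster sum at 2.51. Its lowest age was P21 and its highest P1 under each scaling, and leaving out 1 age gave a lowest age of day 15 to 21 and a highest age of day 1 to 3, and the lowest moved without P21 and the highest without P1. All 6 members stayed at least 2-fold higher at P1 under each scaling and pseudocount. The direction of none of the 36 single values reversed, and 18 of them moved beyond the counting interval of the value as deposited. A scaling moves every miRNA alike and the pseudocounts are small beside these levels, so these are no separate checks of each member. Mir17 and Mir19b1 were highest at P3 when scaled to the miRNA total. The number of members that fell with age was 3 as deposited, 1 with median-of-ratios scaling and 5 relative to all miRNA alignments, and 0 with any single age left out. The number of miRNA features called was 34 as deposited, 15 with median-of-ratios scaling and 55 relative to all miRNA alignments, and 0 with any single age left out, where fewer samples leave a larger smallest p. Counted as alignments, the share of Mir20a was 32.2% at P1 and 9.55% at P21, and that of Mir19b1 37.0% and 68.9%. The share of Mir19b1 may hold reads of Mir19b2. Depth limits Mir92a1 most, and the variation between animals stays unknown.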
